A study of Mus musculus with 8 samples.

Results

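The genes described here encode 6 secreted proteins linked to scarring (Tgfb1, Pdgfa, Pdgfb, Vegfa, Thbs1 and Lgals3) and 4 cell-surface receptors (Tgfbr1, Tgfbr2, Pdgfra and Pdgfrb). They were chosen by symbol as 10 of the 31054 features of the count tables, and all 10 were found. Their transcripts were counted in single cells of mouse bone marrow from a transplant model of myelofibrosis, the replacement of marrow by scar tissue, 112 days after transplant. Female B6.SJL recipients, 8 to 10 weeks old, were irradiated with 10.5 Gy and given marrow of 8-week-old donors that had been taken 48 h earlier and infected with a retrovirus. The donors were Gli1-/- or wild type, Gli1 being a transcription factor of Hedgehog signalling, and the virus carried either JAK2V617F, an overactive form of the JAK2 kinase found in patients with this disease, or its control JAK2WT. The 4 libraries were Gli1 knockout with JAK2V617F (KO-V617F), Gli1 knockout with JAK2WT (KO-JAK2WT), wild type with JAK2V617F (WT-V617F) and wild type with JAK2WT (WT-JAK2WT). Each pooled 3 mice marked with antibody tags. The tag libraries are not analysed here, so each condition entered as 1 library and no difference was tested. The knockout was carried by the donor cells, while marrow stroma that survives irradiation comes from wild type recipients. Cells were lineage-depleted with magnetic beads against CD11b, GR1, TER119, B220 and CD3 and then sorted as viable GFP-positive and GFP-negative cells, a gate that sets the share of every cell type below.

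TGF-beta 1, encoded by Tgfb1, is secreted in a latent form, and once released it brings together its type II receptor Tgfbr2 and its type I receptor Tgfbr1, which then activate Smad proteins and raise the production of matrix. Thrombospondin 1, encoded by Thbs1, is among the proteins that can release the latent form. PDGF chains A and B, from Pdgfa and Pdgfb, bind the receptor tyrosine kinases encoded by Pdgfra and Pdgfrb, which mark mesenchymal cells and drive their growth, whereas VEGF-A from Vegfa acts mainly on endothelial cells. Galectin-3, from Lgals3, is a sugar-binding protein of myeloid cells and macrophages. In myelofibrosis, megakaryocytes, platelets and monocytes are the usual sources named for TGF-beta 1 and PDGF, and stromal cells are the usual target.

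After filtering and doublet removal, 6035 cells remained in KO-V617F, 3770 in KO-JAK2WT, 3432 in WT-V617F and 7196 in WT-JAK2WT. Their median depth was 13676, 17312, 13214 and 4404 unique molecular identifiers (UMIs) per cell in the same order, so WT-JAK2WT was the shallowest library. Pairs of libraries shared between 5 and 18 filtered barcodes. Gli1 gave 4 UMIs in KO-V617F, none in KO-JAK2WT, 2 in WT-V617F and none in WT-JAK2WT, too few to check the genotype. The donors also differed in sex: Y-linked genes gave 11875 UMIs in KO-V617F and 9055 in KO-JAK2WT, against 1 in WT-V617F and 1 in WT-JAK2WT. Genotype and donor sex cannot be told apart. Clustering, done without the 10 genes, gave 33 clusters, of which 29 were given to 16 cell classes by marker genes and 4 stayed unnamed (4.07% to 24.2% of a library's cells). Cluster 0, with 1021 of the 1520 monocyte-like cells, was a close call, since another class scored slightly higher. At Leiden resolution 2.0 a cluster also led by Dmkn and F13a1 was named granulocyte-monocyte progenitor and promyelocyte. With doublets kept, or with the 10 genes among the variable genes, such a cluster stayed unnamed. No cluster met the criteria for megakaryocytes: Ppbp, a platelet chemokine, gave at most 37 UMIs per library and Gp6, a platelet collagen receptor, gave none in any. Levels below are UMIs of a gene in each 1e6 UMIs (CPM) of the summed cells of a class in a library, shown where at least 20 cells were present. Genes on the opposite strand overlap Thbs1, Pdgfa, Pdgfra and Pdgfb, and whether the counting used strand is not given in the sources used here. Brackets give exact Poisson 95% intervals, which cover counting error only and not the spread between mice.

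**Figure D1:**
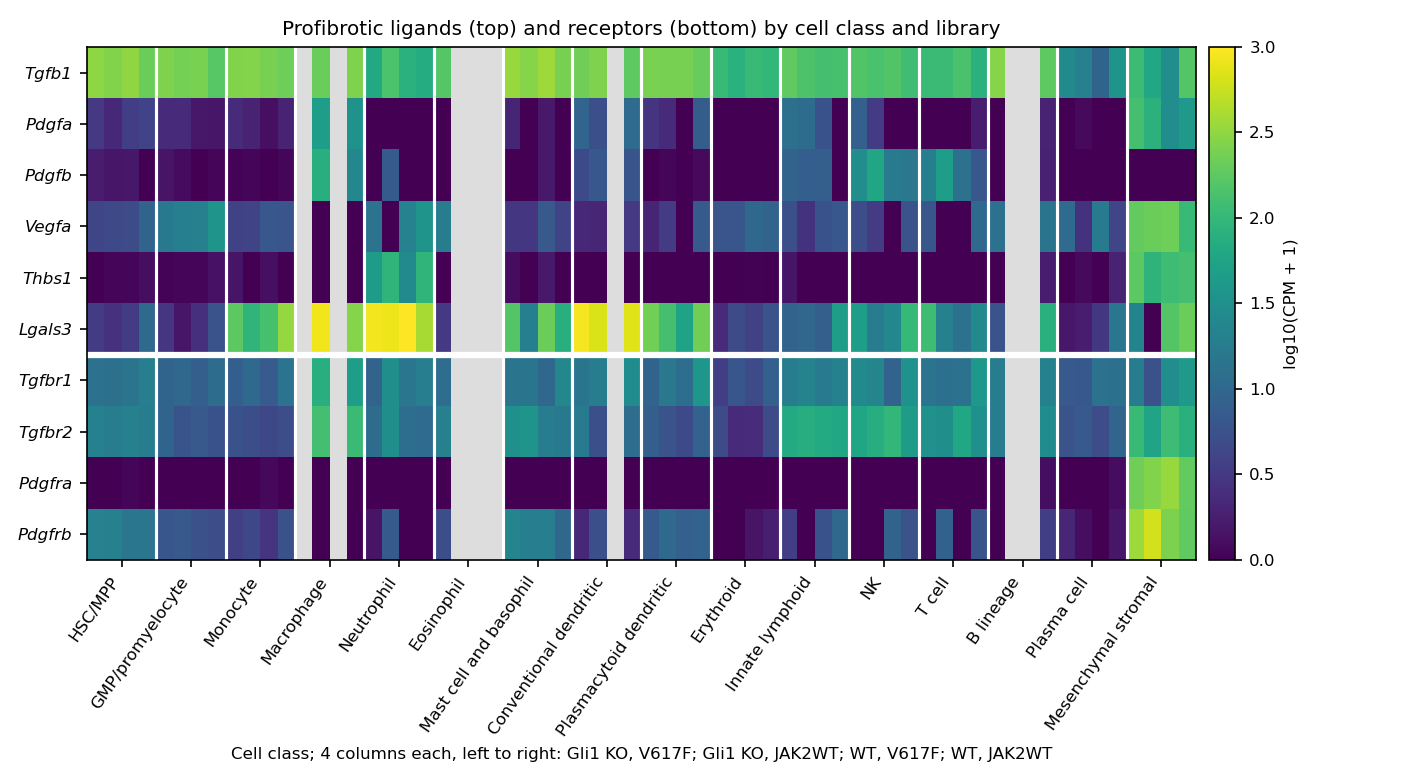
Level of each ligand (upper rows) and receptor (lower rows) as log10(CPM + 1), by cell class and library. Each class has 4 columns in the order named under the axis, and grey marks fewer than 20 cells. Tgfb1 is high in nearly all classes, Pdgfra mainly in mesenchymal stromal-like cells, and Lgals3 in neutrophil-like, dendritic, macrophage-like and monocyte-like cells.

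Tgfb1 was the broadly made ligand. Over all cells of a library it stood at 267 CPM in KO-V617F, 215 in KO-JAK2WT, 200.4 in WT-V617F and 165 in WT-JAK2WT, a sum in which the mix of cells and the RNA per cell cannot be told apart. In the mast cell and basophil-like class it stood at 346 CPM in KO-V617F, 285 in KO-JAK2WT, 363 in WT-V617F and 244 in WT-JAK2WT. In hematopoietic stem cell and multipotent progenitor-like (HSC/MPP-like) cells it stood at 306 CPM [300.2 to 312] in KO-V617F, 269 [259 to 280] in KO-JAK2WT, 314 [301 to 328] in WT-V617F and 211 [196 to 227] in WT-JAK2WT. Monocyte-like cells followed at 273, 277, 240.5 and 216 CPM in the same order of libraries. The ranges of these 3 classes over the libraries overlapped with each other and with those of granulocyte-monocyte progenitor and promyelocyte-like (GMP-like) and plasmacytoid dendritic-like cells, so their order is not settled. At the low end were plasma cell-like cells, with 26.0 CPM in KO-V617F, 19.5 in KO-JAK2WT, 8.3 in WT-V617F and 35.0 in WT-JAK2WT, and neutrophil-like cells, with 66.0, 141, 80.4 and 71.5 CPM in those libraries. Mesenchymal stromal-like cells were as low as neutrophil-like cells, with means over libraries of 89.8 and 89.6 CPM. The stromal-like range was 28.8 to 158 CPM, from 75 UMIs in all. Erythroid-like cells had a mean of 97.5 CPM. No value of these low classes reached any value of the 3 classes given first.

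Over the 4 libraries together, HSC/MPP-like cells held 26.0% of the Tgfb1 UMIs, GMP-like cells 18.7% and monocyte-like cells 18.1%. These shares rest on how many cells of a class passed the sort. Of HSC/MPP-like cells, 90.9% in KO-V617F, 90.9% in KO-JAK2WT, 90.6% in WT-V617F and 71.2% in WT-JAK2WT had at least 1 Tgfb1 UMI. With every cell thinned to 2000 UMIs these shares were 44.6%, 43.4%, 49.5% and 30%. WT-JAK2WT stayed lowest at equal depth. Across the 12 classes with a value in every library, WT-JAK2WT had the lowest Tgfb1 level in 7, among them the HSC/MPP-like, GMP-like, monocyte-like and mast cell and basophil-like classes.

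Unnamed cluster 13 was led by Pf4, a platelet chemokine, together with H1fx, Ctla2a and Angpt1. There Tgfb1 stood at 293 CPM in KO-V617F, 271 in KO-JAK2WT, 312 in WT-V617F and 220.2 in WT-JAK2WT, while Pf4 stood at 76.99, 15.2, 88.6 and 741 CPM. In each library its Tgfb1 level lay near that of HSC/MPP-like cells.

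Tgfb1 lies on mouse chromosome 7, at chr7:25687002-25705077 on the forward strand of GRCm38 (GENCODE M21). B9d2, a gene for a protein of the primary cilium, lies on the same strand and ends 443 bases before it. Over 44 class-by-library sums of 14 classes (at least 50 cells each), the genes whose log2 levels followed Tgfb1 most closely were Hsd17b12 (Pearson r = 0.94), Akr1a1 (0.92) and B9d2 (0.90). These sums share cells of the same libraries, and r is a description. With sums of at least 20 cells, chosen after seeing the data, the 3 genes were Hsd17b12, Sumo3 and Hprt (0.90, 0.88 and 0.86), without B9d2. B9d2 itself stood at 106, 98.9, 104 and 77.9 CPM in HSC/MPP-like cells of KO-V617F, KO-JAK2WT, WT-V617F and WT-JAK2WT, against 16.3, 9.1, 20.8 and 14.5 CPM in plasma cell-like cells. The 250 bases before the Tgfb1 start, which lie wholly between these neighbours, are shown for that reason (RefSeq, GRCm38.p6, 5′ to 3′). Capitals mark the GC box GGGCGG on either strand, of which there were 5.
Tgfb1, chr7:25686752-25687001, forward strand: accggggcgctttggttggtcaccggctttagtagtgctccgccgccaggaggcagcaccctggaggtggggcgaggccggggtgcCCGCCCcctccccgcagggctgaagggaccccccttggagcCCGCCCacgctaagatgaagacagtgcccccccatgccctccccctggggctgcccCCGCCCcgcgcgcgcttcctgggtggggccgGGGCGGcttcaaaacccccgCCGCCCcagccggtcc
The window was 75.2% G or C with 21 CpG pairs, against medians of 52.4% and 6 over 32851 RefSeq promoter windows of this length, of which 32.7% held a GC box. Promoter windows were found for 7 of the 10 genes, and those of Tgfbr1, Pdgfa, Vegfa and Lgals3 held 2, 2, 2 and 1 GC boxes, while those of Tgfbr2 and Pdgfra held none. TATAAA, searched on both strands, was in none of the 7 windows and in 12.4% of all windows.

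The TGF-beta receptors had other patterns than their ligand. Tgfbr2, the subunit that binds TGF-beta, stood at 125 CPM in macrophage-like cells of KO-JAK2WT and 108 in those of WT-JAK2WT, from 8 and 23 UMIs. Mesenchymal stromal-like cells stood at 103 CPM in KO-V617F, 55.4 in KO-JAK2WT, 115 in WT-V617F and 79.1 in WT-JAK2WT. NK-like cells stood at 58.8, 73.6, 97.1 and 43.5 CPM and innate lymphoid-like cells at 66.7, 73.3, 66.6 and 61.7 CPM in those libraries. These 4 classes had the highest means over libraries, but the ranges of the stromal-like, NK-like and innate lymphoid-like classes overlapped with each other and with that of T cell-like cells (30.5 to 62.8 CPM). HSC/MPP-like cells stood lower, between 17.4 and 20.04 CPM in all 4 libraries, and monocyte-like cells lower again, between 3.4 and 4.6 CPM. Monocyte-like cells, among the richest in the ligand, were thus among the poorest in Tgfbr2.

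Tgfbr1, the signalling subunit, had few UMIs in most classes. Macrophage-like cells led with 77.9 CPM in KO-JAK2WT and 47.2 in WT-JAK2WT, from 5 and 10 UMIs. Mesenchymal stromal-like cells had a mean over libraries of 22.5 CPM (4.6 to 39.6), from only 17 UMIs in all. NK-like cells had a mean of 22.4 CPM (8.1 to 33.8). Erythroid-like, GMP-like, HSC/MPP-like and monocyte-like cells lay between 2.6 and 18.4 CPM. In WT-JAK2WT, T cell-like and plasmacytoid dendritic-like cells stood at 38.3 CPM (219 UMIs) and 37.4 CPM (361 UMIs). The plasmacytoid dendritic-like class had 8.3 CPM in KO-V617F, 14.97 in KO-JAK2WT and 11.1 in WT-V617F, so WT-JAK2WT stood apart there. The class joins cluster 10 and cluster 12, and cluster 12 gave 22 of 158 cells in KO-V617F, 116 of 470 in KO-JAK2WT, 4 of 23 in WT-V617F and 498 of 931 in WT-JAK2WT. Within cluster 10 Tgfbr1 stood at 8.3 CPM in KO-V617F, 13.9 in KO-JAK2WT and 29.7 in WT-JAK2WT, and within cluster 12 at 8.3, 20.2 and 49.6 CPM. The genes most like Tgfbr2 over the 44 sums were Crebrf, Neurl3 and Txnip (r = 0.92, 0.90 and 0.90), and those most like Tgfbr1 were Map3k2, Mef2a and Xiap (0.83, 0.83 and 0.82).

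The PDGF receptors pointed to the stroma, and Pdgfra almost to it alone. The mesenchymal stromal-like class had 38 cells in KO-V617F, 41 in KO-JAK2WT, 42 in WT-V617F and 45 in WT-JAK2WT. It held 52 of 52 Pdgfra UMIs in KO-V617F (100%), 58 of 58 in KO-JAK2WT (100%), 48 of 50 in WT-V617F (96.0%) and 38 of 41 in WT-JAK2WT (92.7%). The level there was 224 CPM [167 to 294] in KO-V617F, 268 [203 to 346] in KO-JAK2WT, 346 [255 to 458] in WT-V617F and 188 [133 to 258] in WT-JAK2WT. These counting intervals overlap between every pair of libraries, though those of WT-V617F and WT-JAK2WT share only 255 to 258 CPM. Doublet removal had taken some of these UMIs: before it, cells past the filters held 61 in KO-V617F, 101 in KO-JAK2WT, 61 in WT-V617F and 42 in WT-JAK2WT.

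Pdgfra lies at chr5:75152292-75198215 on the forward strand. Its upstream window is shown beside that of Tgfb1, for a gene read almost wholly in 1 cell class.
Pdgfra, chr5:75152001-75152250, forward strand: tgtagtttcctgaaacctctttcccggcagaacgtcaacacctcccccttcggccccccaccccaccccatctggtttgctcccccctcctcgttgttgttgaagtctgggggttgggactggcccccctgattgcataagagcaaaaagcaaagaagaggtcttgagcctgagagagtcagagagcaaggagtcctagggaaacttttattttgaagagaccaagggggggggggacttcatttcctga
It held no GC box and was 54.4% G or C with 4 CpG pairs, near the medians of all windows. The window of Pdgfa, a scarce gene, was 72.4% G or C with 28 CpG pairs. That of Tgfbr2, read in many classes, was 58.4% G or C with 12. Whether such windows relate to the breadth of expression was not tested. Stromal sums had fewer than 50 cells and did not enter the 44 sums. When sums of at least 20 cells were admitted, a choice made after seeing the data, the 3 genes most like Pdgfra over 56 sums were Fbxl7, Col6a1 and S100a16, all with r = 1.00 after rounding and all set by the same 4 stromal sums.

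The stromal-like cells came from 2 clusters with different PDGF receptors. Cluster 19 (106 cells) was led by Cxcl12, Spp1, Igfbp5 and Mgp and carried the marrow-niche markers Cxcl12 (13393 CPM), Lepr (874 CPM), Adipoq (1017 CPM) and Kitl (1081 CPM). It also carried the osteoblast markers Ibsp (2331 CPM, in 58 cells), Alpl (112 CPM) and Sp7 (31.0 CPM), of which cluster 29 gave at most 1 UMI each. The osteoblast markers Bglap and Dmp1 gave only 2 UMIs each in cluster 19, and Bglap2 gave none. Cluster 29 (60 cells) was led by Dcn, Apod and Myoc and had Cxcl12 at 212 CPM, Lepr at 94.96 CPM and no Adipoq UMI. Of the endothelial markers, Cldn5 and Stab2 gave no UMI in either cluster, Cdh5 gave 5 UMIs and Tek 10 in cluster 29 and none in cluster 19, and Egfl7 gave 10 in each. Emcn, Esam and Plvap gave 3 UMIs or fewer in each cluster. Pdgfra stood at 273 CPM in cluster 19 and 201 CPM in cluster 29. Pdgfrb, in contrast, stood at 543 CPM in cluster 19 and 40.2 CPM in cluster 29. At least 1 UMI of both receptors was found in 57 of 106 cells of cluster 19 and in 5 of 60 cells of cluster 29, where 26 cells had Pdgfra without Pdgfrb. Since the median depth was 4421 UMIs in cluster 19 and 3361 in cluster 29, a missing UMI in a single cell is weak evidence, and the summed levels carry the difference.

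For Pdgfrb the stromal-like level was 366 CPM [292 to 453] in KO-V617F, 619 [519 to 733] in KO-JAK2WT, 252 [176 to 350.4] in WT-V617F and 183 [129 to 252] in WT-JAK2WT. The mix of the 2 clusters moved with it: cluster 19 gave 27 of 38 cells in KO-V617F, 38 of 41 in KO-JAK2WT, 16 of 42 in WT-V617F and 25 of 45 in WT-JAK2WT. Within cluster 19 the levels were 584, 660.1, 661 and 263 CPM in that order, so WT-JAK2WT alone stood low. In the knockout libraries the stromal-like cells carried recipient-type sex transcripts: Xist gave 205 UMIs in KO-V617F and 475 in KO-JAK2WT, with 17 and 1 UMIs of Y-linked genes. HSC/MPP-like cells of the same libraries gave 8 and 84 UMIs of Xist and 4606 and 1381 of Y-linked genes.

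Most Pdgfrb UMIs nevertheless lay outside the stroma. HSC/MPP-like cells held 54.4% of them in KO-V617F, 24.3% in KO-JAK2WT, 30.5% in WT-V617F and 14.1% in WT-JAK2WT, and stromal-like cells 6.5%, 17.9%, 11.0% and 11.1%. The HSC/MPP-like level was 20.5 CPM [19.0 to 22.0] in KO-V617F, 19.1 [16.4 to 22.1] in KO-JAK2WT, 13.9 [11.3 to 17.0] in WT-V617F and 14.0 [10.3 to 18.6] in WT-JAK2WT. At least 1 UMI was found in 24.3%, 26.6%, 16.0% and 12.0% of these cells. In erythroid-like cells, used as a class that should lack the receptor, the share was 0.635% of 1259 cells in WT-V617F and 1.28% of 78 cells in WT-JAK2WT, at median depths of 13063 and 14822 UMIs. Both libraries of knockout donors had the higher HSC/MPP-like level and both of wild type donors the lower, with the KO-JAK2WT interval overlapping those of the wild type libraries. By cluster the picture was less even: in cluster 4 Pdgfrb stood at 23.4, 21.9, 14.6 and 7.5 CPM in KO-V617F, KO-JAK2WT, WT-V617F and WT-JAK2WT, and in cluster 3 at 17.0, 17.0, 13.6 and 18.3 CPM. Cluster 4 gave 64.0%, 54.1%, 46.5% and 48.9% of the HSC/MPP-like cells in that order. Thinning to 2000 UMIs left Pdgfrb in 4.6%, 4.5%, 4.2% and 2.3% of HSC/MPP-like cells, close to the level of single UMIs, and no order is read from it.

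Cluster 13, which carries Pf4, stood at 20.9, 24.8, 24.4 and 26.4 CPM of Pdgfrb in KO-V617F, KO-JAK2WT, WT-V617F and WT-JAK2WT. Cluster 5 of the mast cell and basophil-like class stood at 27.7, 18.8, 24.1 and 9.3 CPM, whereas cluster 14 of that class, led by Ccl6 and Fcer1a and holding cells of the JAK2V617F libraries alone at this clustering, had 0 UMIs among 41 cells in KO-V617F and 1 among 47 cells in WT-V617F. At Leiden resolution 2.0 the cluster led by the same genes also held 23 cells of WT-JAK2WT. Monocyte-like cells had between 1.9 and 4.5 CPM. Csf1r, the receptor gene that begins 15536 bases after the end of Pdgfrb on the same strand, ran the other way, with 6.7 CPM in HSC/MPP-like cells of KO-V617F and 61.2 CPM in monocyte-like cells of that library. Over the 44 sums the genes most like Pdgfrb were Angpt1, Meis1 and H1fx (r = 0.87, 0.85 and 0.84), Meis1 being a transcription factor of stem cells. With stromal sums admitted they became Msrb3, Col4a1 and Col4a2 (0.95 each after rounding), which follows from the stromal sums.

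**Figure D2:**
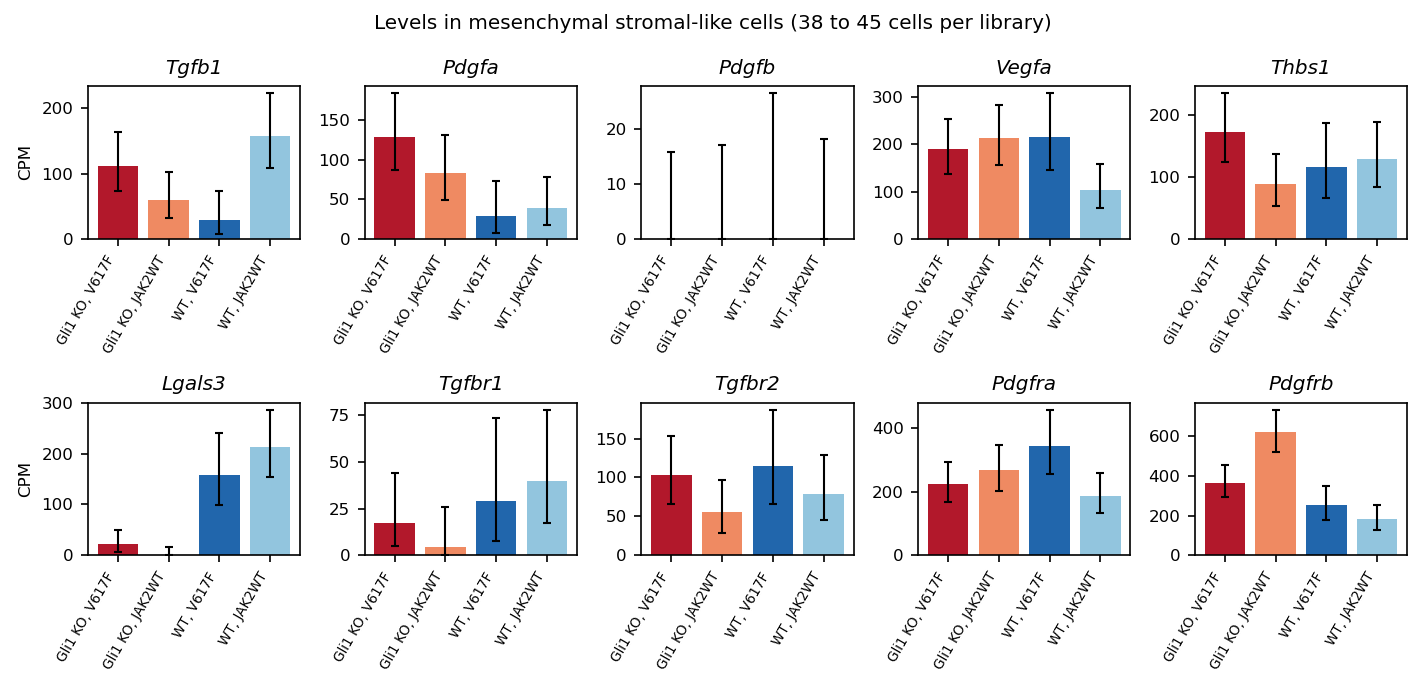
CPM of each gene in the 166 mesenchymal stromal-like cells by library (bars) with exact Poisson 95% intervals. Pdgfra lies between 188 and 346 CPM and Vegfa between 104 and 216 CPM, Pdgfb has no UMI in any library, and Pdgfrb is highest in KO-JAK2WT.

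The PDGF ligands were scarce, and their cells differed. Pdgfa stood at 129 CPM [87.2 to 184] in stromal-like cells of KO-V617F, 83.1 [49.3 to 131] in KO-JAK2WT, 28.8 [7.8 to 73.7] in WT-V617F and 39.6 [17.1 to 77.9] in WT-JAK2WT, from 30, 18, 4 and 8 UMIs. The KO-V617F interval lay above those of both wild type libraries, while the KO-JAK2WT interval overlapped all others. All but 1 of these 60 UMIs were in cluster 19, where the levels were 211 CPM in KO-V617F, 83.7 in KO-JAK2WT, 88.2 in WT-V617F and 63.8 in WT-JAK2WT. Macrophage-like cells had 46.7 CPM in KO-JAK2WT and 33.0 in WT-JAK2WT. HSC/MPP-like cells held 23.1% of all Pdgfa UMIs by their number, at 1.1 to 3.0 CPM. Cluster 18 of the innate lymphoid-like class had 39.7 CPM in KO-V617F, 27.6 in KO-JAK2WT, 17.1 in WT-V617F and none among 17 cells of WT-JAK2WT.

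Pdgfb, by contrast, gave no UMI in stromal-like cells of any library, which allows up to 12.9 CPM in KO-V617F, 13.9 in KO-JAK2WT, 21.6 in WT-V617F and 14.8 in WT-JAK2WT (3 counts per library). It was found in lymphoid cells: NK-like cells stood at 28.9 CPM in KO-V617F, 56.4 in KO-JAK2WT, 16.2 in WT-V617F and 14.5 in WT-JAK2WT, from 28, 23, 2 and 3 UMIs. T cell-like cells stood at 18.8, 45.7, 12.6 and 5.6 CPM in those libraries, and macrophage-like cells at 77.9 CPM in KO-JAK2WT and 23.6 in WT-JAK2WT, from 5 UMIs each. Only 248 Pdgfb UMIs were counted in all, of which NK-like cells held 22.6% and T cell-like cells 20.97%. The genes most like it, Samd3, Cxcr3 and Klrk1 (r = 0.90 each), include the lymphocyte receptor genes Cxcr3 and Klrk1. The A chain and not the B chain was thus read in the class that carried Pdgfra. No class of megakaryocytes, the textbook source of the B chain, was named in these data.

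Vegfa was highest in the stroma, at 190 CPM [138 to 254] in KO-V617F, 212 [156 to 283] in KO-JAK2WT, 216 [146 to 308] in WT-V617F and 104 [64.3 to 159] in WT-JAK2WT. Again cluster 19 carried more (242 CPM) than cluster 29 (58.4 CPM). By number of UMIs the main source was the GMP-like class, with 41.2% of all Vegfa UMIs. Its level was 15.5 CPM in KO-V617F, 18.9 in KO-JAK2WT, 19.1 in WT-V617F and 34.8 in WT-JAK2WT. Neutrophil-like cells stood at 12.97 CPM in KO-V617F, 20.7 in WT-V617F and 34.7 in WT-JAK2WT, while 25 such cells of KO-JAK2WT gave no UMI, which allows up to 18.3 CPM. Unnamed cluster 32, which had 145 cells in WT-JAK2WT and was led by Fcnb, Clec4a2 and Camp, had 71.3 CPM there. In WT-V617F the erythroid-like class, at only 9.2 CPM, held 30.6% of the Vegfa UMIs since it had 1259 cells. The genes most like Vegfa over the 44 sums were Ncam1, Cebpe and Fcnb (r = 0.76, 0.76 and 0.69), Cebpe being a transcription factor of granulocyte maturation.

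Thbs1 was read almost wholly in 2 classes. Stromal-like cells stood at 172 CPM [123 to 235] in KO-V617F, 87.8 [52.8 to 137] in KO-JAK2WT, 115 [65.8 to 187] in WT-V617F and 129 [84.0 to 188] in WT-JAK2WT. Neutrophil-like cells stood at 44.6 CPM [38.6 to 51.3] in KO-V617F, 91.6 [51.3 to 151] in KO-JAK2WT, 26.6 [20.8 to 33.5] in WT-V617F and 91.95 [67.1 to 123] in WT-JAK2WT. The neutrophil-like level was thus lower in the JAK2V617F library than in the JAK2WT library of the same genotype, although the knockout pair rests on 25 cells and 15 UMIs in KO-JAK2WT and its intervals touch. Neutrophil-like cells held 70.5% of the Thbs1 UMIs and stromal-like cells 21.7%. No other class with at least 20 cells exceeded 1.0 CPM. The genes most like Thbs1 were Olfm4, Olfml2b and Orm1 (r = 0.99, 0.98 and 0.98 over the 44 sums, in which only neutrophil-like cells expressed it).

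**Figure D3:**
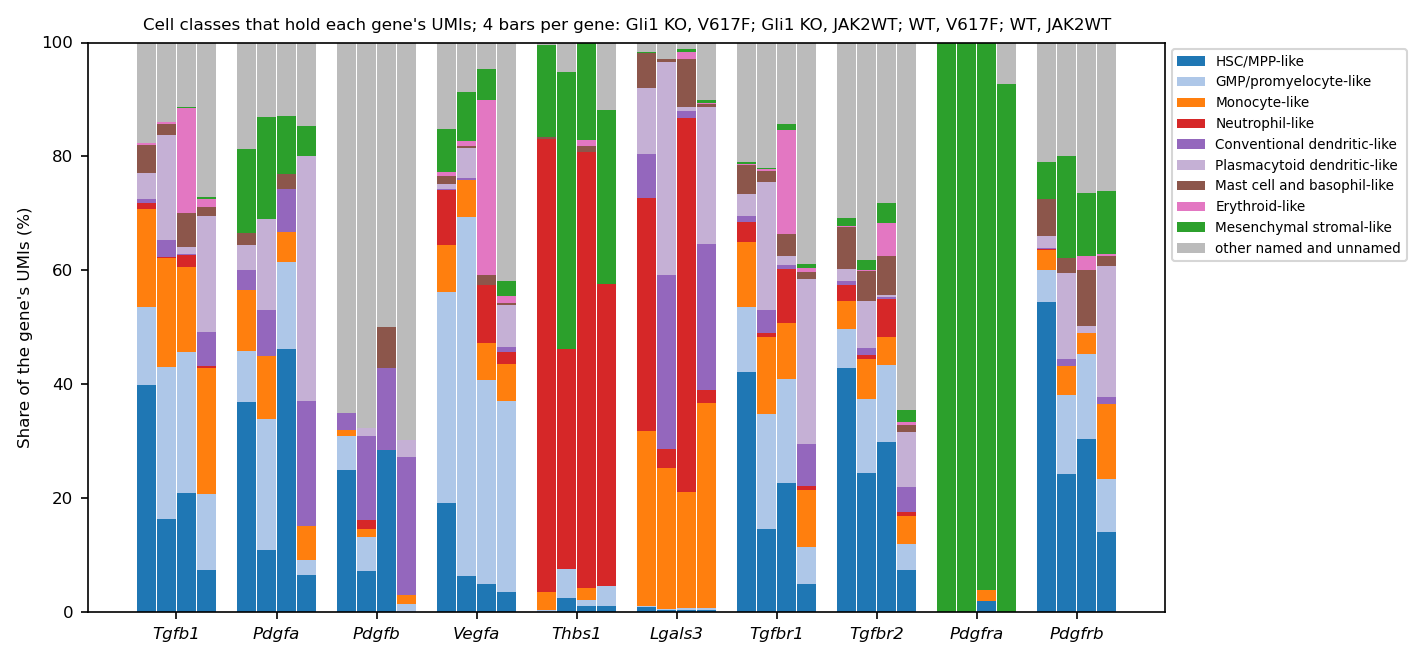
Share of each gene's UMIs held by each cell class, with 4 bars per gene in the order named in the title. Green shows mesenchymal stromal-like cells, which hold 92.7% to 100% of the Pdgfra UMIs, and red neutrophil-like cells, which hold most Thbs1 UMIs in 3 libraries.

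Lgals3 had its highest means in neutrophil-like, conventional dendritic-like and macrophage-like cells. Monocyte-like and plasmacytoid dendritic-like cells followed, with means over libraries of 183 and 158 CPM, and held 29.9% and 17.9% of its UMIs. Neutrophil-like cells stood at 890.0 CPM in KO-V617F, 831 in KO-JAK2WT, 1034 in WT-V617F and 407 in WT-JAK2WT. Conventional dendritic-like cells stood at 905 CPM in KO-V617F, 679 in KO-JAK2WT and 709 in WT-JAK2WT, a range that overlaps that of neutrophil-like cells. Macrophage-like cells had 872 CPM in KO-JAK2WT and 288 in WT-JAK2WT. Erythroid-like cells gave the background, at 1.3, 4.0, 2.9 and 4.8 CPM in KO-V617F, KO-JAK2WT, WT-V617F and WT-JAK2WT. Cluster 14 of the mast cell and basophil-like class stood at 669.9 CPM in KO-V617F and 671 in WT-V617F, far above cluster 5 of the same class, at 29.4 and 40.2 CPM. In stromal-like cells Lgals3 gave 5 UMIs in KO-V617F and 0 in KO-JAK2WT, against 22 in WT-V617F and 43 in WT-JAK2WT. Of these 70 UMIs, 35 lay in 8 of 106 cells of cluster 19 and 35 in 22 of 60 cells of cluster 29, which had 11 cells in KO-V617F and 3 in KO-JAK2WT, against 26 in WT-V617F and 20 in WT-JAK2WT. The genes most like Lgals3 were Ppm1m, Cfp and AI839979 (r = 0.87, 0.87 and 0.85).

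To compare the conditions at an equal mix of cell classes, levels were standardised over the 4 classes with at least 100 cells in each library: HSC/MPP-like (weight 40.9%), GMP-like (25.3%), monocyte-like (21.7%) and innate lymphoid-like cells (12.1%). The mix of clusters inside a class still differed between libraries. This standard holds no stroma and no neutrophils, so it describes progenitors, monocytes and innate lymphoid cells only. A gene counted as changed when its standardised level differed at least 1.5-fold, with 10 CPM added to both values, and reached 10 CPM in either library. With JAK2V617F in wild type marrow, 5 of the 10 genes reached 10 CPM and 1, Lgals3, lay past this line, on the lower side, beside 7.32% of all 8169 genes that reached 10 CPM in either direction and 3.16% on the lower side. In the knockout, 5 of 10 reached it and Lgals3 lay past the line on the higher side, beside 0.575% of 8006 genes in either direction and 0.287% on the higher side. Between knockout and wild type with JAK2V617F none of 5 did, beside 0.847% of 7906 genes, and with JAK2WT 1 of 6, Lgals3, lay past it on the lower side, beside 2.42% of 8165 genes in either direction and 0.992% on the lower side. The median log2 ratio of the members that reached 10 CPM was -0.30, 0.06, 0.07 and -0.07 in these 4 comparisons, beside 0.04, 0.01, -0.01 and 0.03 for all such genes. The comparisons share libraries and are not independent of each other.

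**Figure D4:**
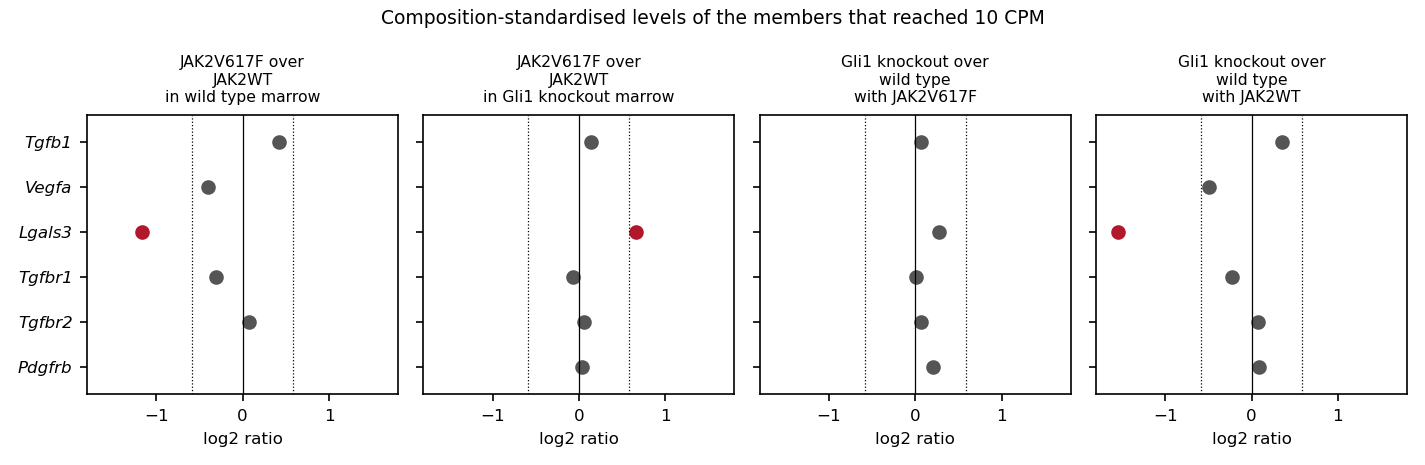
Log2 ratio of composition-standardised CPM (10 CPM added) for the 6 genes that reached 10 CPM, in 4 comparisons. Dotted lines mark 1.5-fold, and red points lie past them. Lgals3 is the only red point, lower in 2 comparisons and higher in 1.

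Standardised Tgfb1 was 273 CPM in KO-V617F, 247 in KO-JAK2WT, 260 in WT-V617F and 191 in WT-JAK2WT. The JAK2V617F library was higher than its JAK2WT partner by 0.42 (log2) in wild type and 0.14 in knockout marrow, and the knockout was higher than the wild type by 0.07 with JAK2V617F and 0.36 with JAK2WT. None of these reached 1.5-fold. The wild type difference was largest in GMP-like cells (250.4 CPM in WT-V617F and 165 in WT-JAK2WT, log2 0.57) and HSC/MPP-like cells (314 and 211 CPM, log2 0.55), just inside the 1.5-fold line. Within HSC/MPP-like cluster 4 it was 321 CPM in WT-V617F, against 174 in WT-JAK2WT (log2 0.84), and within cluster 3 it was 311, against 235 CPM (log2 0.39). In the knockout pair these clusters differed by 0.14 and 0.23. WT-JAK2WT, the lowest library in each case, is also the shallowest, and the part of depth in this was not tested beyond the thinned shares above.

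Standardised Vegfa was 6.4 CPM in KO-V617F, 7.1 in KO-JAK2WT, 8.3 in WT-V617F and 14.0 in WT-JAK2WT. In GMP-like cells the level in WT-V617F (19.1 CPM [16.5 to 21.9]) lay below that in WT-JAK2WT (34.8 CPM [30.8 to 39.3]), a log2 ratio of -0.63 that passed the 1.5-fold line, as did 2.64% of genes in that class on the lower side. The same holds for KO-JAK2WT (18.9 CPM) against WT-JAK2WT, with a log2 ratio of -0.63 beside 0.846% of genes. Inside cluster 1 of the GMP-like class this second contrast stayed short of the line (27.2 CPM in KO-JAK2WT and 41.5 in WT-JAK2WT, log2 -0.47). In cluster 6 (4.4 and 8.5 CPM, log2 -0.36) neither library reached 10 CPM, so no call was possible. KO-JAK2WT was the lower library in both clusters. Cluster 6, poor in Vegfa, gave 34.1% of the class in KO-JAK2WT and 16.6% in WT-JAK2WT. The part of this mix in the contrast was not tested. The knockout libraries differed little from each other in GMP-like cells. Tgfbr1, Tgfbr2 and Pdgfrb stayed inside the line: Tgfbr1 was lower in WT-V617F (10.6 CPM) than in WT-JAK2WT (15.4 CPM), Tgfbr2 lay between 16.8 and 19.4 CPM in all libraries, and Pdgfrb was 10.6 CPM in KO-V617F and 7.8 in WT-V617F, a log2 ratio of 0.21.

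Standardised Lgals3 was 40.3 CPM [38.8 to 41.8] in KO-V617F, 21.7 [20.1 to 23.6] in KO-JAK2WT, 31.4 [29.2 to 34.0] in WT-V617F and 82.4 [78.9 to 86.3] in WT-JAK2WT. The log2 ratio of JAK2V617F over JAK2WT was thus -1.16 in wild type and 0.67 in knockout marrow, and that of knockout over wild type was 0.28 with JAK2V617F and -1.54 with JAK2WT. Monocyte-like cells set most of it, with 174 CPM in KO-V617F, 91.4 in KO-JAK2WT, 134 in WT-V617F and 330.1 in WT-JAK2WT. They were made of cluster 2, rich in Lgals3, and cluster 0, poor in it, in unequal parts: cluster 2 gave 103 of 472 cells in KO-V617F, 111 of 337 in KO-JAK2WT, 38 of 228 in WT-V617F and 247 of 483 in WT-JAK2WT. Cluster 0 is the one whose name was a close call. Within cluster 2 the level was 709 CPM in KO-V617F, 237 in KO-JAK2WT, 880.0 in WT-V617F and 621 in WT-JAK2WT. The wild type contrast therefore turned within this cluster, with a log2 ratio of 0.50, and in cluster 0 the libraries were level (31.6 CPM in WT-V617F and 31.8 in WT-JAK2WT). The knockout contrast kept its sign within clusters, with log2 ratios of 1.54 in cluster 2 and 1.38 in cluster 0, and KO-JAK2WT was the lowest library in both. Innate lymphoid-like cells added to the wild type contrast, with 7.1 CPM in WT-V617F and 47.2 in WT-JAK2WT (log2 -1.74, 3 and 26 UMIs), in a class where 15.9% of genes lay past the line on the lower side. Neither call on Lgals3 by JAK2 form was stable: the log2 ratio in the knockout was -0.05 with doublets kept, and that in wild type was 0.06 when clusters and not classes were the standard, a setting chosen after seeing the data. The lower level in KO-JAK2WT than in WT-JAK2WT had the same sign in 11 of 11 alternatives, between -1.88 and -0.89.

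**Figure D5:**
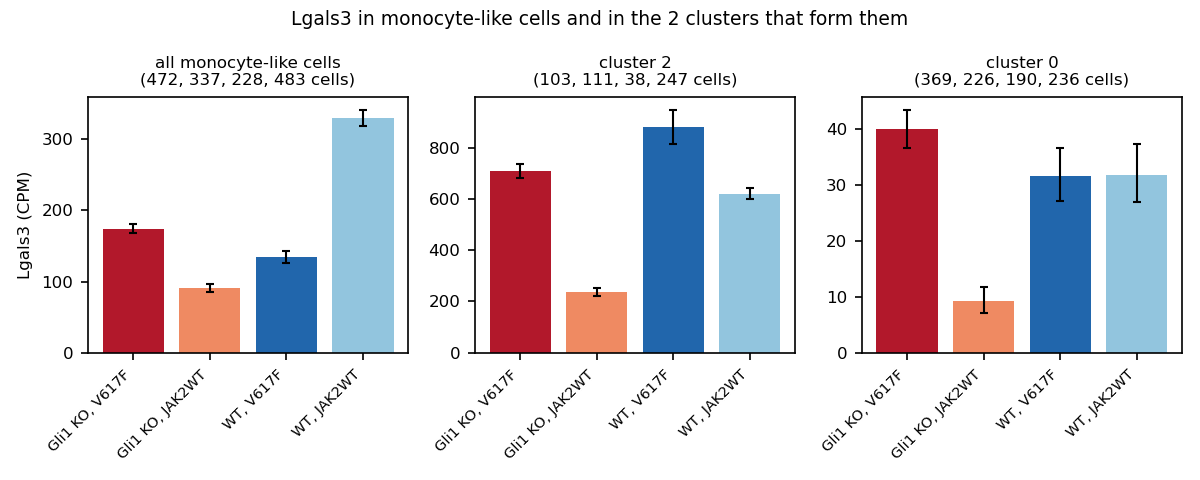
Lgals3 CPM with exact Poisson 95% intervals in all monocyte-like cells and in the 2 clusters that form them, by library. Over the class WT-JAK2WT is highest at 330.1 CPM, whereas within cluster 2 WT-V617F is highest at 880.0 CPM and KO-JAK2WT lowest at 237 CPM.

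The other genes of these pathways were taken from 6 lists. Over all genes, 4.16% lay past the line on the higher side and 3.16% on the lower side in the wild type comparison. In the comparison of knockout with wild type under JAK2WT, 1.43% lay past it on the higher side. Of 28 TGF-beta pathway genes, 12 reached 10 CPM in the standard of the wild type comparison, and Bmpr2, a BMP receptor, and Smad5, a BMP-responsive Smad, were lower in WT-V617F (11.0 and 13.6 CPM) than in WT-JAK2WT (22.0 and 27.2 CPM). None was past the line in the other 3 comparisons. Of 17 TGF-beta response genes, 11 reached 10 CPM there, and Junb, an AP-1 subunit, was higher in WT-V617F (358 CPM) than in WT-JAK2WT (135 CPM, log2 1.34), as was Id1, a repressor of differentiation factors (19.4 and 8.1 CPM, log2 0.70). Junb was also higher in KO-JAK2WT (272 CPM) than in WT-JAK2WT (log2 0.96). In the VEGF list Egln3, an oxygen-sensing hydroxylase, was the only gene of 7 past the line (38.9 CPM in WT-V617F and 21.6 in WT-JAK2WT), and among thrombospondins and their receptors only Sdc4, a heparan sulfate proteoglycan, was (35.4 and 18.4 CPM). Sdc4 was also higher in KO-JAK2WT (43.3 CPM) than in WT-JAK2WT. None of 9 PDGF pathway genes and none of 8 galectins and partners lay past it, nor did any gene of the 6 lists in the other 2 comparisons.

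By cell class, stromal-like cells led most of the TGF-beta pathway list. Of its 25 genes that reached a mean of 10 CPM in some class, 18 TGF-beta pathway genes had their highest mean in stromal-like cells. The same held for 8 of 17 TGF-beta response genes, 6 of 13 PDGF pathway genes, 7 of 13 VEGF pathway genes, 5 of 11 thrombospondins and receptors and 2 of 9 galectins and partners. Of all 12008 genes that reached a mean of 10 CPM in some class, 21.9% had their highest mean there. Named after their values were seen, Ltbp1, which binds latent TGF-beta, averaged 135 CPM in stromal-like cells, Tgfbr3, a co-receptor, 252 CPM, and Tgfb2, a second isoform of the ligand, 30.7 CPM. Thbs2 averaged 84.8 CPM and Vegfc 110.3 CPM there. Nrros, which tethers latent TGF-beta on myeloid cells, was instead highest in conventional dendritic-like cells, with a mean of 138 CPM. The VEGF receptor gene Kdr did not exceed a mean of 2.3 CPM in any class, and no endothelial class was found.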

How the data were processed

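Gene expression was measured with the 10x Genomics 3′ kit in 4 libraries of sorted mouse marrow cells. The authors deposited count matrices of whole UMIs for each barcode, with no normalization, per the file headers and values. Cell Ranger 4.0.0, Seurat 4.0.4 and the mm10 genome are named in the submitters' processing notes. The antibody tag libraries that separate the 3 pooled mice are not analysed here.

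A barcode was kept when it had 500 or more genes, 1000 or more UMIs and a mitochondrial share below 10%. Scrublet as built into scanpy 1.11.5 scored doublets, and the top 0.8% per 1000 barcodes of each library were removed. Counts were scaled to 10000 per cell, and 2000 variable genes without the 10 genes studied gave 30 principal components, 15 exact neighbours and Leiden clusters at resolution 1.0 (leidenalg 0.10.2, igraph 0.11.9, Python 3.11.15). Clusters were named from marker lists, with unclear ones left unnamed. Deposited counts were then summed by class and library. Poisson, binomial (Clopper-Pearson) and gamma intervals at 95% came from scipy 1.17.1, and they cover counting error only. With 1 library per condition no test was run, and a gene was called when it was at least 1.5-fold apart with 10 CPM added and reached 10 CPM. The procedure was tested on simulated data.

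The 10 genes were chosen by symbol, and they and all lists were chosen with earlier results of these data known. Besides the 10 genes, those named are the pathway genes past the 1.5-fold line and the 3 most similar genes over sums of at least 50 cells, unless stated. Thinning to 2000 UMIs left out shallower cells. Coordinates come from GENCODE M21. A planned description by GFP transcripts was not made, since at most 89 cells of a library had one. Alternatives covered the filters, doublets, clustering, added CPM and the standard.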

Additional observations from a re-analysis of the deposited data

Results flagged for a closer look

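The response of Lgals3 to the JAK2 form went opposite ways in the 2 genotypes. Standardised over 4 classes, the log2 ratio of JAK2V617F over JAK2WT was 0.67 in Gli1 knockout marrow and -1.16 in wild type marrow, a gap of 1.82. In monocyte-like cells the ratios were 0.86 in knockout and -1.24 in wild type marrow, a gap of 2.1. With 1 library per condition this difference was not tested. Within monocyte cluster 2 the ratios were 1.54 in knockout and 0.50 in wild type marrow, and in cluster 0 they were 1.38 and 0.00. The opposite signs thus did not hold inside these monocyte clusters. They did in HSC/MPP-like cluster 4, with 0.11 in knockout and -0.71 in wild type marrow (4.3 CPM in WT-V617F, 13.5 in WT-JAK2WT). HSC/MPP-like cluster 3 and GMP-like clusters 1 and 6 also had opposite signs, with every level below 10 CPM. In innate lymphoid-like cluster 9 both ratios were negative, at -0.15 and -1.59.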

How the results depend on the processing

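No paired analysis was possible because each condition entered as 1 library of pooled mice, the tag libraries being not analysed here, and no replicate was left out for the same reason. The number of the 10 genes at least 1.5-fold apart was 1 in wild type (JAK2V617F over JAK2WT), 1 in the knockout, 0 for knockout over wild type with JAK2V617F and 1 with JAK2WT. In wild type it was 2 with 1 CPM added, with doublets kept, at Leiden resolution 0.5 and at 2.0 (Vegfa and Lgals3 each time), 2 with the 10 genes among the variable genes (Tgfb1 and Lgals3), 2 over all kept cells (Tgfbr1 and Lgals3), and 0 when clusters were the standard, an alternative added after seeing the data. In the knockout it was 0 with 50 CPM added, with the stricter cell filter, with doublets kept, at Leiden resolution 0.5 and with the 10 genes among the variable genes. For knockout over wild type it was 1 at Leiden resolution 0.5 with JAK2V617F (Lgals3). With JAK2WT it was 2 with 1 CPM added, with doublets kept and at Leiden resolution 2.0 (Vegfa and Lgals3), and 2 over all kept cells (Tgfbr1 and Lgals3). Over all kept cells, 20.8% of 8291 genes lay past the line in wild type (JAK2V617F over JAK2WT), against 7.32% when standardised. In the comparison of knockout with wild type under JAK2WT these shares were 6.21% of 8057 genes and 2.42%. Shares for the other alternatives are not given here, so these counts are not read as a result about the 10 genes. Among the ratios past the line the sign turned in 2 cases: Lgals3 in the knockout was -0.0478 with doublets kept, and Lgals3 in wild type was 0.0591 with clusters as the standard. The cause was not tested. In all, 10 of 21 ratios changed sign in at least 1 alternative (3 of Lgals3, 4 of Tgfbr2, 2 of Tgfbr1 and 1 of Pdgfrb), those of Tgfbr2 in wild type reaching -0.36 and of Lgals3 for knockout over wild type with JAK2V617F reaching -0.20. Those not of Lgals3 had been reported at 0.08 or closer to 0. The ratios of Tgfb1 and Vegfa kept their sign in all 11 alternatives. Of the other values of the ratios, 175 stayed within the counting error and 54 moved by more. Pdgfa, Pdgfb, Pdgfra and Thbs1 did not reach 10 CPM in the standard. That standard holds no stromal-like and no neutrophil-like cells, which held most UMIs of Pdgfra (stromal-like) and Thbs1 (both). Low counts also limit all of these genes.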

Other observations

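Over all kept cells the TGF-beta pathway list was led by Nrros (87.6 CPM), which anchors latent TGF-beta, and by the signal carriers Smad2 (32.0 CPM) and Smad4 (30.8 CPM). Among thrombospondins and receptors Calr led with 1200 CPM, followed by Cd47, a thrombospondin receptor, with 622 CPM. Lgals1 led the galectins with 629 CPM. In stromal-like cells Ctgf, a matrix-associated TGF-beta response gene named after its values were seen, stood at a mean of 391 CPM.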
